A study of Schizosaccharomyces pombe with 72 samples.

Results

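The genes described here are 28 genes of fission yeast (Schizosaccharomyces pombe) with the systematic names of coding genes, whose mean RNA level was at least 4-fold higher in heated than in unheated quiescent cells and less than 2-fold higher in heated than in unheated growing cells. wtf12, a member, is a pseudogene in the RefSeq annotation. They were chosen by their levels in CPM, read counts scaled to an equal total of gene counts in every library. Mean CPM over the 12 heated quiescent libraries had to be at least 10 and at least 4 times that of the 12 unheated quiescent libraries. In growing cells the heated mean had to stay under 2 times the unheated mean. From the start of quiescence to its later unheated stage the mean had to change by less than 2.5-fold upwards. Genes within 100 kb of a chromosome end and genes of ribosomal proteins were left out, so that 28 of 4771 eligible rows, and of 7014 gene rows in all, remained. Of the eligible rows, 50 passed the level and the 4-fold rise, of which 19 were also at least 2-fold higher in heated growing cells, 5 had risen during unheated quiescence and 2 had done both.

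The study profiled RNA in wild-type cells, in a mutant of the cohesin loader (mis4), in a mutant of a TORC1 subunit (mip1) and in the double mutant, under 6 growth conditions with 12 libraries each. T4D_36.5 cells had been starved of nitrogen for 24 hours at 25°C and then kept without nitrogen for 4 days at 36.5°C, T4D_25 cells were parts of the same cultures kept for those 4 days at 25°C, and T0 cells were taken at 24 hours of starvation. V_36.5 cells were growing in rich medium and shifted to 36.5°C for a doubling, V_25 cells were growing in rich medium at 25°C, and these 5 conditions used strains 86, 92, 93 and 97, with 3 libraries of each strain. The starved cultures had been grown in the synthetic medium EMM2 before nitrogen was removed. Comparisons of T0 or T4D cells with V cells therefore differ in medium as well as in nitrogen. The heat lasted 4 days in T4D_36.5 cells and a doubling in V_36.5 cells. Growth state and length of heating thus cannot be told apart. G1_36.5 cells came from strains 82, 83, 84 and 85, which carry a temperature-sensitive cdc10 allele and were arrested in G1 at the restrictive temperature. The strain numbers are not paired with the genotypes in the sources used here, so strains are given by number and no mutant effect is described. The samples were bulk RNA from whole cultures, in which fewer cells with an RNA and less of it per cell cannot be told apart.

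Fission yeast cells that run out of nitrogen arrest in G1 and either mate or, without a partner, enter a long-lived quiescent state in which TORC1 signalling is restrained. Heat is known to act through heat shock factor and through the Sty1 stress kinase with its transcription factor Atf1, which raise chaperone and stress genes in growing cells. Meiotic genes are normally kept silent in growing cells, where the mRNAs of several of them, mei4 among these, are bound by Mmi1 and destroyed by the nuclear exosome.

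The T4D_36.5 libraries held between 1173880 and 4617602 gene counts each, and the T4D_25 libraries between 2018489 and 6442523. Of the heat markers hsp16, hsp104 and ssa1, only the small heat shock protein gene hsp16 stood apart. It was at 403 to 1150 CPM in T4D_36.5 and at 86.1 to 231 CPM in T4D_25. The ranges of hsp104 (152 to 324 CPM against 194 to 310 CPM) and ssa1 (365 to 697 CPM against 302 to 524 CPM) overlapped, with the mean of hsp104 lower in T4D_36.5. In V_25, hsp16 was already at 174 to 311 CPM in strain 86 and 104 to 421 CPM in strain 97, against 10.96 to 17.5 CPM in strain 92 and 3.91 to 6.17 CPM in strain 93. ERCC spike-in RNA took 1.83% to 11.7% of counts in T4D_36.5 and 1.46% to 4.12% in T4D_25, and at most 0.00118% in growing cells. With the spike-in counts as the scale, the median difference of all genes between T4D_36.5 and T4D_25 was -0.95 on the log2 scale, and it was -0.02 on the scale of gene counts used below. On that spike-in scale the median ratio of the 28 genes was 3.21 in place of 6.84, all 28 stayed higher in T4D_36.5, and 6 still met the rule.

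Since the comparison of T4D_36.5 with T4D_25 chose the genes, its values are a description. The ratio of mean CPM ran from 4.02 for mik1 to 61.3 for SPAC5H10.10, with a median of 6.84. SPAC5H10.10 had 2 to 14 counts in the T4D_25 libraries, so its ratio rests on few reads. For 25 of the 28 genes the lowest T4D_36.5 library was above the highest T4D_25 library, as it was for 7.19% of the 4509 eligible rows at 10 CPM or more. The 3 whose libraries overlapped were frp1, cta3 and ght6. All 28 were at least 2-fold higher in each of the 4 strains, and 17 were at least 4-fold higher in each. The number at 4-fold or more was 27 in strain 92, 28 in strain 93, 19 in strain 97 and 24 in strain 86. For 8 genes, which were mcp7, SPAC6C3.03c, fta6, mei4, leu3, wtf12, osr1 and SPCC663.08c, every T4D_36.5 library was above every library of all the other conditions. The share of all eligible rows with this trait was not counted, and a high level in T4D_36.5 was part of the choice.

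**Figure D1:**
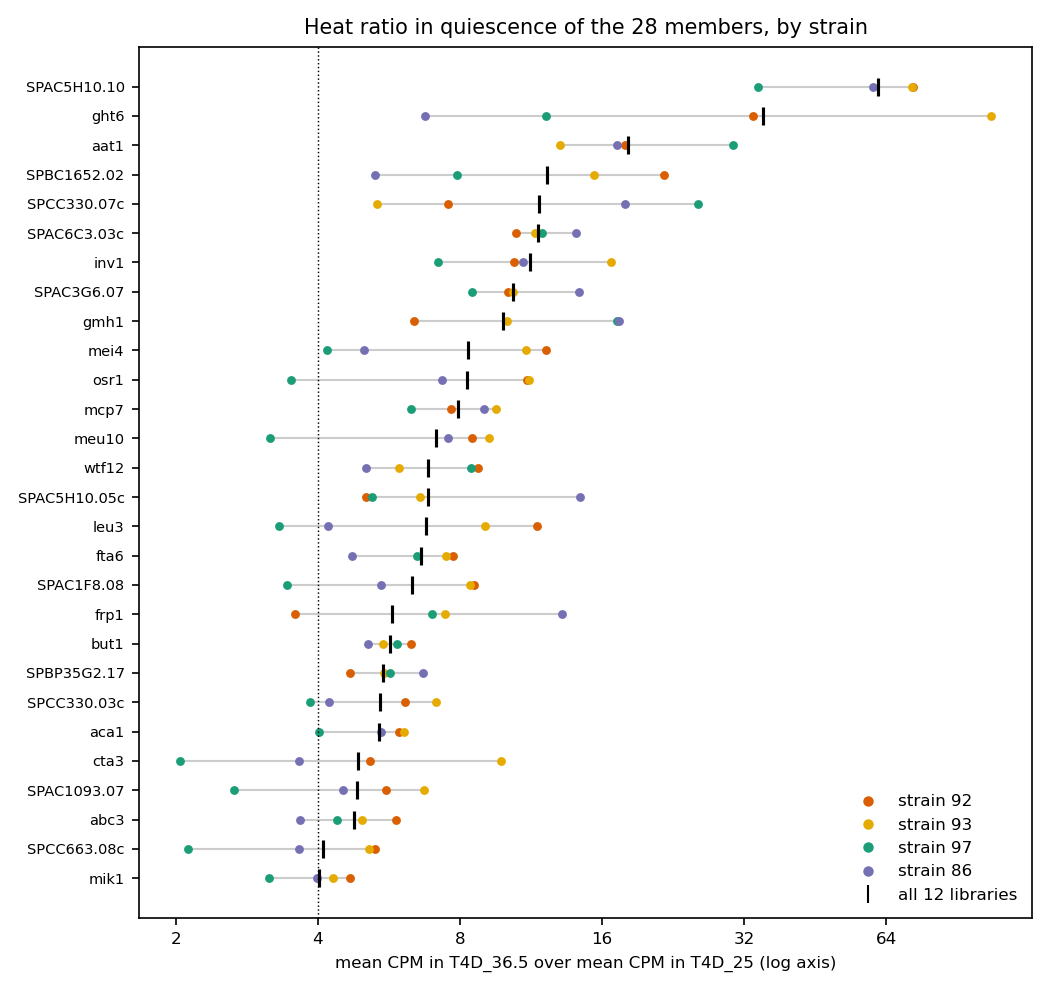
Ratio of mean CPM in T4D_36.5 to mean CPM in T4D_25 (log axis) for each of the 28 genes, with a dot per strain (3 libraries over 3), a black tick for all 12 libraries over 12, and a dotted line at the 4-fold limit of the rule. Strain 97 lay below 4-fold for 9 genes and strain 93 for none, and the widest span was that of ght6, from 6.75 in strain 86 to 107 in strain 93.

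The genes of meiosis ranged widely in level. mei4, the forkhead transcription factor of the middle phase of meiosis, was at 120.4, 304 and 623 CPM in T4D_36.5 (lowest, median and highest library), against 28.4, 38.9 and 50.04 CPM in T4D_25. It stood at 19.9 to 33.02 CPM in T0, 6.21 to 19.2 CPM in G1_36.5, 3.81 to 17.3 CPM in V_36.5 and 2.18 to 14.02 CPM in V_25, so that its levels were higher in T0 than in growing cells and higher again in T4D_36.5. mcp7, a partner of the meiotic recombination protein Meu13, was at 638, 819 and 1017 CPM in T4D_36.5, against 75.8, 94.9 and 153 CPM in T4D_25. Its other levels were 42.0 to 70.5 CPM in T0, 80.2 to 182 CPM in G1_36.5, 8.01 to 114 CPM in V_36.5 and 9.26 to 71.3 CPM in V_25. The 3 libraries of each strain lay within 638 to 1017 CPM in T4D_36.5 for mcp7, and no strain stood apart.

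meu10, a cell surface protein needed to build the spore wall, was at 11.9, 27.9 and 65.0 CPM in T4D_36.5, against 2.48, 4.45 and 7.57 CPM in T4D_25. Its T0 level was 6.68 to 15.2 CPM, and it was at 9.19 to 18.2 CPM in G1_36.5, 6.28 to 25.2 CPM in V_36.5 and 7.88 to 19.1 CPM in V_25, so the unheated quiescent cells held the lowest levels. wtf12, of the wtf family of spore killer genes, was at 13.4, 26.3 and 40.0 CPM in T4D_36.5, against 1.43, 2.98 and 7.03 CPM in T4D_25. Its highest value elsewhere was 12.2 CPM, in G1_36.5, and 0.274% of the 50-base stretches of its RNA are shared with another gene. fta6, a subunit of the Sim4 complex of the kinetochore, was at 38.8, 69.0 and 125 CPM in T4D_36.5, against 5.86, 11.1 and 15.6 CPM in T4D_25, and at 2.22 to 8.98 CPM in T0. It was at 6.28 to 12.7 CPM in G1_36.5, 0.932 to 9.35 CPM in V_36.5 and 0.342 to 4.56 CPM in V_25.

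These RNAs did not come with the whole meiotic programme. The sporulation gene spo6 was at 0 to 1.99 CPM in T4D_36.5 and 0 to 0.466 CPM in T4D_25. rec12, which makes the breaks of meiotic recombination, was at 9.37 to 21.7 CPM in T4D_36.5 and 9.41 to 19.4 CPM in T4D_25, ranges that lie over each other. Of 45 other genes of meiosis and sporulation tested, 15 were higher and 14 lower in T4D_36.5 by edgeR (adjusted p under 0.05), where 33.8% of all 6330 genes tested were higher and 35.3% lower. Those with the largest differences were hop1, of the meiotic chromosome axis, with a log2 difference of 2.81 (SE 0.17), and isp3, of the spore coat, with 2.80 (SE 0.19). The median of the 45 was 0.10, against -0.02 for all genes. Of 103 other genes with the symbols mug or meu, named for a rise in meiosis, 46 were higher and 25 lower, with a median of 0.20.

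**Figure D2:**
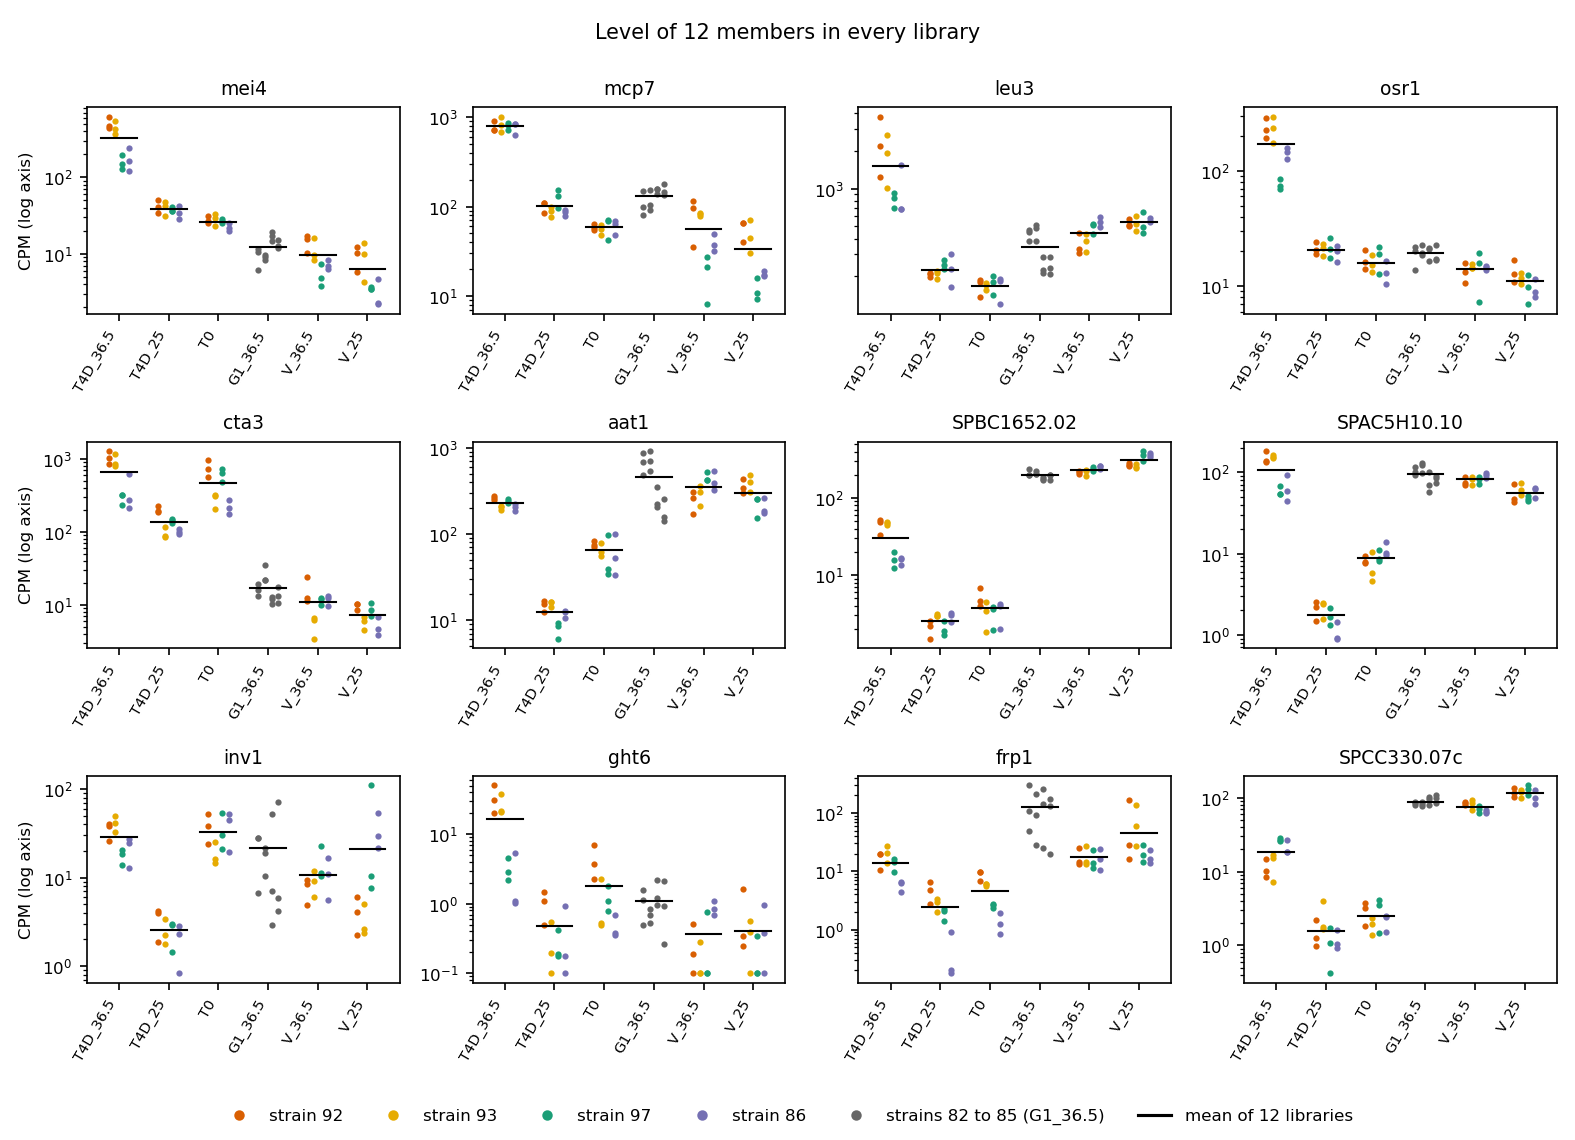
CPM (log axis) of 12 of the 28 genes in every library, by growth condition, with colours for strains and a bar at the mean of 12 libraries; libraries at 0 are drawn at 0.1. For mei4, mcp7, leu3 and osr1 every T4D_36.5 library lay above all others, whereas SPBC1652.02 and SPCC330.07c in T4D_36.5 lay above T4D_25 and below all growing cells.

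The sequences before the starts of mei4, fta6 and leu3 are shown because these are the 3 genes of the 28 with a copy of GTAAACA, the core of the FLEX element that Mei4 binds, within 250 bases before to 50 bases after the start. They come from RefSeq (ASM294v3), and capitals mark the motif, which lies on the opposite strand and so reads TGTTTAC. The stretches are II:1472956-1473012 on the plus strand for mei4, I:4782383-4782439 on the minus strand for fta6 and II:2690704-2690760 on the minus strand for leu3.
mei4: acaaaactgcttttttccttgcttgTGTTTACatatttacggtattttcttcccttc
fta6: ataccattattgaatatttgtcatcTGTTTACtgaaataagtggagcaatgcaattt
leu3: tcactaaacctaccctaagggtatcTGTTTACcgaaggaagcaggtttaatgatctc
The 3 genes are 10.7% of the 28, and 16.5% of 5113 protein-coding genes hold the motif in this window. All 3 were also above every other library in T4D_36.5, as were 5 genes without it, mcp7 among them.

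Genes for amino acids formed a further group. leu3, 2-isopropylmalate synthase, the enzyme of the committed step of leucine synthesis, was at 688, 1121 and 3741 CPM in T4D_36.5, against 165, 217 and 303 CPM in T4D_25. It was at 119.6 to 201 CPM in T0, 208 to 511 CPM in G1_36.5, 307 to 589 CPM in V_36.5 and 447 to 650.4 CPM in V_25. In T4D_36.5 it had the highest level per length of the 28, 667 CPM per kb of exon, followed by mcp7 with 546 and fta6 with 406, against 6.58 for frp1 at the low end.

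The transporters of amino acids behaved otherwise, since heated quiescent cells held no more of their RNA than growing cells did. aat1, an amino acid permease, was at 187, 226 and 278 CPM in T4D_36.5, against 6.08, 12.5 and 16.6 CPM in T4D_25. Its level was 33.8 to 101 CPM in T0, 142 to 922 CPM in G1_36.5, 173 to 538 CPM in V_36.5 and 156 to 484 CPM in V_25. In aat1, 6.58% of 50-base stretches are shared with SPBC359.01, so part of its counts is uncertain.

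SPBC1652.02, an amino acid transporter of the APC type, was at 12.3, 26.4 and 52.0 CPM in T4D_36.5, against 1.49, 2.51 and 3.21 CPM in T4D_25. It was at 1.83 to 6.70 CPM in T0 but at 171 to 238 CPM in G1_36.5, 189.8 to 263 CPM in V_36.5 and 244 to 405 CPM in V_25, so its heated level was 0.0986 times that of V_25. SPCC330.07c, a membrane transporter, was at 7.30, 17.6 and 28.4 CPM in T4D_36.5, against 0.419, 1.43 and 3.94 CPM in T4D_25, at 1.38 to 4.07 CPM in T0 and at 61.7 to 146 CPM in growing cells and G1_36.5. Of 23 other genes of amino acid and ammonium transport tested, 4 were higher and 16 lower in T4D_36.5 by edgeR (adjusted p under 0.05), with a median of -0.65. put4, a proline permease, had the largest difference, -2.00 (SE 0.15), followed by the ammonium transporter amt3 with 1.87 (SE 0.18).

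Among genes of sugar use, ght6, a hexose transporter, was at 1.03, 12.9 and 50.3 CPM in T4D_36.5, against 0, 0.308 and 1.47 CPM in T4D_25. Its highest library elsewhere was 7.11 CPM, in T0, and it was at most 2.18 CPM in G1_36.5 and 1.63 CPM in growing cells. As 3 counts came to between 0.466 and 1.49 CPM in the T4D_25 libraries, the T4D_25 level of ght6 rests on few reads, and 2.01% of its 50-base stretches are shared with other hexose transporter genes. inv1, the secreted invertase, was at 13.0, 26.7 and 49.8 CPM in T4D_36.5, against 0.828, 2.58 and 4.19 CPM in T4D_25. In T0 it was at 14.7, 27.7 and 53.3 CPM, so in CPM its heated level was near that of the start of quiescence, and its T4D_25 level was lower. No time between T0 and 4 days was sampled, so RNA that was kept cannot be told from RNA lost and raised again.
The stretches around the heat shock element of these genes, GAANNTTC or TTCNNGAA on either strand, are shown because ght6 and inv1 are among the 7 of the 28 genes (25.0%) that hold a copy, as do 19.9% of 5113 protein-coding genes. They lie at III:204648-204705 on the plus strand before ght6 and III:1723361-1723418 on the plus strand before inv1 (RefSeq ASM294v3), with the element in capitals.
ght6: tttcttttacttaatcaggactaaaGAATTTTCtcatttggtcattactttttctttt
inv1: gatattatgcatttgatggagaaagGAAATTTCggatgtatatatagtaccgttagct
Of 16 other genes of hexose transport and glucose repression tested, 8 were higher and 5 lower in T4D_36.5 by edgeR (adjusted p under 0.05), with a median of 0.21. The hexose transporter gene ght7 and gal10, of galactose use, had the largest differences, 4.77 (SE 0.26) and 4.38 (SE 0.24).

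A further group handles ions and metals. cta3, a P-type ATPase that moves cations, was at 210.3, 714 and 1280 CPM in T4D_36.5, against 84.9, 124 and 228 CPM in T4D_25. It was at 175, 403 and 976 CPM in T0 and at no more than 35.7 CPM in G1_36.5, 23.8 CPM in V_36.5 and 10.7 CPM in V_25. The mean of cta3 in T0 was thus 64.2 times that of V_25, the mean in T4D_25 was 0.289 times that of T0, and the mean in T4D_36.5 was 1.41 times that of T0. It stands on a list of targets of Sty1 and Atf1, of which 6 of 20 others were higher and 7 lower in T4D_36.5 by edgeR (adjusted p under 0.05), with a median of -0.03, and the largest differences were -1.71 (SE 0.26) for gst1 and 1.57 (SE 0.09) for gst2, both glutathione S-transferases.

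frp1, the ferric reductase of the cell surface, was at 4.33, 14.2 and 26.7 CPM in T4D_36.5, against 0.178, 2.18 and 6.44 CPM in T4D_25. It was higher in G1_36.5, at 19.6 to 296 CPM, and was at 0.854 to 9.74 CPM in T0, 10.46 to 27.0 CPM in V_36.5 and 13.6 to 167 CPM in V_25. abc3, an ABC transporter of the vacuole membrane, was at 73.2, 157 and 240.2 CPM in T4D_36.5, against 22.2, 33.02 and 43.7 CPM in T4D_25. Its level was 37.2 to 51.3 CPM in T0, 77.9 to 458 CPM in G1_36.5, 101 to 274 CPM in V_36.5 and 41.8 to 242 CPM in V_25. Of 16 other genes of iron and copper uptake tested, 4 were higher and 8 lower by edgeR (adjusted p under 0.05), with a median of -0.36, and shu1 and str3, both of heme uptake, had the largest differences, 5.06 (SE 0.41) and 4.06 (SE 0.50).

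Several genes encode oxidoreductases. SPAC5H10.10, an NADPH dehydrogenase, was at 44.4, 113 and 182 CPM in T4D_36.5, against 0.892, 1.63 and 2.52 CPM in T4D_25. It was at 4.59 to 14.02 CPM in T0, 57.2 to 131 CPM in G1_36.5, 68.7 to 96.7 CPM in V_36.5 and 43.6 to 73.5 CPM in V_25, so its level in heated quiescent cells was 1.31 times that of heated growing cells. SPAC5H10.05c, an FAD-binding oxidoreductase, had the same shape, with 33.7, 49.3 and 64.1 CPM in T4D_36.5, against 2.29, 7.91 and 9.93 CPM in T4D_25, and 22.2 to 78.1 CPM in growing cells.

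osr1, a dehydrogenase, differed in that growing cells held little of it. It was at 69.3, 166 and 294 CPM in T4D_36.5, against 16.1, 20.7 and 26.3 CPM in T4D_25, and at no more than 22.7 CPM in T0, G1_36.5 and growing cells. SPCC663.08c, a short-chain dehydrogenase encoded near osr1 on chromosome III, was at 30.8, 63.4 and 129 CPM in T4D_36.5, against 11.8, 16.5 and 22.6 CPM in T4D_25, and at most 27.7 CPM elsewhere. In these 2 genes, 7.82% of the 50-base stretches of osr1 and 8.97% of those of SPCC663.08c are shared with each other, so a part of the counts cannot be assigned with certainty to either.

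SPCC330.03c, a cytochrome b5 reductase, was at 116, 381 and 542 CPM in T4D_36.5, against 40.6, 62.3 and 84.4 CPM in T4D_25. It was at 49.1 to 142 CPM in T0, 22.6 to 70.7 CPM in G1_36.5, 9.88 to 22.3 CPM in V_36.5 and 7.29 to 21.7 CPM in V_25. aca1, an acetyltransferase that detoxifies a proline analogue, was at 128, 280.0 and 351 CPM in T4D_36.5, against 31.8, 50.9 and 60.6 CPM in T4D_25. Its level was 46.8 to 60.7 CPM in T0, 44.4 to 139 CPM in G1_36.5, 33.5 to 69.8 CPM in V_36.5 and 17.3 to 42.0 CPM in V_25. Of 22 other genes of the oxidative stress response tested, 7 were higher and 9 lower by edgeR (adjusted p under 0.05), with a median of -0.11, the largest differences being 1.40 (SE 0.14) for the superoxide dismutase sod1 and 1.23 (SE 0.07) for the glutaredoxin grx5.

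mik1, a kinase that holds Cdc2 inactive by phosphorylation, was at 13.1, 21.0 and 37.5 CPM in T4D_36.5, against 2.48, 5.89 and 8.32 CPM in T4D_25. It was at 5.19 to 15.1 CPM in T0 and more abundant in G1_36.5 and growing cells, at 23.6 to 65.9 CPM. but1, a protein of the thioredoxin family, was at 15.4, 24.2 and 34.6 CPM in T4D_36.5, against 2.75, 3.84 and 6.21 CPM in T4D_25, and gmh1, a galactosyltransferase of the Golgi, at 8.45, 10.7 and 21.7 CPM, against 0, 0.963 and 2.79 CPM. gmh1 overlaps the end of SPAC5H10.10 by 66 bases on the same strand (chromosome I, 164570 to 166335 and 162756 to 164635, ASM294v2), and its mean was 12.4 CPM in T4D_36.5 beside 107 CPM for SPAC5H10.10, so reads of the overlap could belong to either.

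The remaining 5 genes are uncharacterised in the RefSeq annotation. SPAC3G6.07 was at 7.80, 30.5 and 55.0 CPM in T4D_36.5, against 0.918, 2.61 and 6.89 CPM in T4D_25, with at most 2.29 CPM in growing cells. SPAC6C3.03c was at 9.31, 23.1 and 28.7 CPM in T4D_36.5, against 0.459, 1.57 and 3.94 CPM in T4D_25, with at most 5.04 CPM in any other condition. SPAC1F8.08 was at 36.6, 67.4 and 108 CPM in T4D_36.5, against 6.40, 12.5 and 14.9 CPM in T4D_25. Like frp1, it was higher in G1_36.5 (33.7 to 69.2 CPM) than in V_36.5 (12.6 to 29.0 CPM). SPAC1093.07 was at 21.4, 42.4 and 84.5 CPM in T4D_36.5, against 6.78, 8.96 and 12.2 CPM in T4D_25, and SPBP35G2.17 at 23.8, 31.3 and 49.0 CPM, against 3.31, 5.46 and 8.86 CPM.

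The 28 genes had no common history before the heat. T0 means were at least 2-fold above V_25 for 8 of the genes and at least 2-fold below for 10, against 19.3% and 16.2% of the 4509 eligible rows at 10 CPM or more. T0 and V_25 cells differed in medium as well as in nitrogen. The mean in T4D_36.5 was at least 2-fold above T0 for 26 of the 28, the exceptions being cta3 and inv1, and at least 2-fold below for none, against 7.27% and 4.83% of the eligible rows. Set against V_25, the T4D_36.5 mean was at least 2-fold higher for 18 genes and at least 2-fold lower for 4, which were frp1, mik1, SPBC1652.02 and SPCC330.07c, against 21% and 16.9%. All these means of T4D_36.5 entered the choice of the genes. In G1_36.5 the mean was at least 2-fold above V_36.5 for 11 of the 28, against 3.90% of the eligible rows, and at least 2-fold below for none, against 1.18%. These G1_36.5 and V_36.5 cells differed in strain as well as in arrest, and V_36.5 entered the choice of the genes, so no test was made.

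The limit on growing cells applied to the mean of all strains. A gene at least 2-fold higher in every strain could therefore not meet it. Shares of all eligible rows were not counted for the single strains. Within single strains, 12 of the 28 genes had a V_36.5 mean at least 2-fold above V_25 in 1 or more strains, 3 in 2 strains and none in every strain. Those 3 were SPAC6C3.03c, aat1 and abc3, in each case in strains 97 and 86. abc3 was 3.68-fold and 3.36-fold higher there, against 1.12-fold in strain 92 and 1.18-fold in strain 93. In the same contrast SPAC3G6.07 had no counts in V_25 in strains 92 and 93, so no ratio is given for them.

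The levels of most of these genes in heated quiescence differed between strains. The choice did not use the strains but used the mean over them, so a gene could pass through part of the strains only. The counts and p-values below are therefore partly set by the choice. ght6 averaged 2.47 CPM in strain 86 and 3.19 CPM in strain 97, under the limit of 10, and cta3 had ratios of 3.65 and 2.04 there, under the limit of 4. By edgeR, 19 of the 28 differed among the 4 strains in T4D_36.5 (adjusted p under 0.05), against 26.1% of all 6025 genes tested. In T4D_25 the same test called 2 of 26 genes tested, cta3 and frp1, against 1.75% of 5950, and 9 had an unadjusted p under 0.05. With the replicate number, labelled as a batch, as a block the counts were 27 of 28 in T4D_36.5, with mcp7 the exception, against 39.1% of all genes, and 4 of 26 in T4D_25, where mcp7 and aat1 were added, against 7.55%. Without replicate 2 the T4D_36.5 count was 6, made up of SPAC5H10.10, mei4, SPBC1652.02, ght6, osr1 and SPCC663.08c, against 3.09% of all genes. In T4D_25 the count was 0 without replicate 1 (4 at an unadjusted p under 0.05), 0 without replicate 2 (3 at an unadjusted p under 0.05) and 1 without replicate 3, against 0.291%, 0.223% and 1.72% of all genes.

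SPBC1652.02 had the smallest adjusted p in T4D_36.5, 3.48e-05 by edgeR. Its 3 libraries were at 32.9, 48.6 and 52.0 CPM in strain 92 and 44.1, 48.3 and 47.1 CPM in strain 93, against 12.3, 19.9 and 15.7 CPM in strain 97 and 13.6, 15.99 and 16.4 CPM in strain 86. ght6 was at 20.4, 31.2 and 50.3 CPM in strain 92 and 20.8, 21.7 and 37.9 CPM in strain 93, against 2.87, 2.21 and 4.48 CPM in strain 97 and 1.08, 1.03 and 5.29 CPM in strain 86 (edgeR adjusted p = 6.62e-05). In both genes the 6 libraries of strains 92 and 93 lay above the 6 of strains 97 and 86. As ght6 met the limit of 10 CPM only through strains 92 and 93, its p-value is no separate support for a strain difference.

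mei4 was at 439, 477 and 623 CPM in strain 92 and 365, 434 and 545 CPM in strain 93, against 129.5, 195 and 152 CPM in strain 97 and 120.4, 163 and 242 CPM in strain 86 (edgeR adjusted p = 0.000105). SPAC5H10.10 was at 133, 182 and 135 CPM in strain 92 and 164, 149.9 and 153 CPM in strain 93, against 53.3, 67.8 and 54.5 CPM in strain 97 and 44.4, 59.3 and 92.0 CPM in strain 86 (edgeR adjusted p = 0.000171). Again no library of strains 97 and 86 reached those of strains 92 and 93. osr1 (edgeR adjusted p = 0.000315) fell into 3 levels, with 226, 192 and 285 CPM in strain 92 and 294, 173 and 234 CPM in strain 93, 144, 126 and 158 CPM in strain 86 and 84.9, 69.3 and 73.2 CPM in strain 97. cta3 was at 846, 1014 and 1280 CPM in strain 92 and 808, 848 and 1161 CPM in strain 93, against 235, 321 and 323 CPM in strain 97 and 210.3, 271 and 619 CPM in strain 86 (edgeR adjusted p = 0.000831). It met the 4-fold limit through strains 92 and 93, so this p-value too is partly set by the choice.

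The strains in T4D_36.5 gave 6 pairs, with p-values adjusted over all genes and pairs together, and what is said above of the choice holds for these pairs too. Strain 92 was above strain 86 in 14 of the 28 genes and below in none, where 7.37% of all genes were above and 11% below. Strain 93 was above strain 86 in 12 and below in none (all genes 6.49% and 9.23%). Against strain 97, strain 92 was above in 16 and below in 1 (8.15% and 11.6%), and strain 93 above in 14 and below in none (7.44% and 10.2%). Strains 97 and 86 differed in 2 genes, frp1, higher in strain 97 with a log2 difference of 1.21 (SE 0.32, edgeR adjusted p = 0.0231), and osr1, lower with -0.90 (SE 0.22, edgeR adjusted p = 0.0174), where 0.730% of all genes were higher and 0.382% lower. Between strains 92 and 93, 0 of the 28 passed by edgeR (all genes 0.0332% and 0.216%), 1 passed by DESeq2, 1 had an unadjusted p under 0.05, and the log2 differences ran from -0.44 to 0.38. For the counts of 0 below strain 86 and strain 97, DESeq2 also called 0, 0 and 1, and 1, 0 and 1 had an unadjusted p under 0.05, for 92 minus 86, 93 minus 86 and 93 minus 97 in turn. Without replicate 2 the genes higher were 2 for 92 minus 86, 2 for 93 minus 86, 4 for 92 minus 97 and 5 for 93 minus 97, and 1.93% of all genes differed in 1 or more pairs by edgeR. Without replicate 1 they were 6, 6, 12 and 13 in the same order, with 1 lower for 92 minus 97, and 12.2% of all genes differed in 1 or more pairs. With spike-in totals as the scale, 1 gene was higher in each of these 4 pairs and 2, 2, 2 and 3 were lower, where 47.9% to 71.9% of all genes were lower.

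Sizes for single genes followed the same order. The log2 difference of mei4 was 1.61 (SE 0.23) for strain 92 minus 86, 1.43 (SE 0.23) for 93 minus 86, 1.75 (SE 0.23) for 92 minus 97 and 1.57 (SE 0.23) for 93 minus 97, and it was 0.18 (SE 0.22) for 92 minus 93 and -0.14 (SE 0.23) for 97 minus 86. That of ght6 was 4.11 (SE 0.50) for strain 92 minus 86 and 3.24 (SE 0.49) for 93 minus 97, sizes that are partly set by the choice, as said above. SPCC330.07c was the gene that passed in the other direction, with 14.9, 10.03 and 8.52 CPM in strain 92 against 26.1, 26.8 and 28.4 CPM in strain 97 (log2 difference -1.18, SE 0.30, edgeR adjusted p = 0.0214). SPAC5H10.05c at -0.28 for 92 minus 86 and aat1 at -0.18 for 93 minus 97 were also below 0 and did not pass. The median difference over the 28 genes was 0.80, 0.78, 1.08 and 0.96 for 92 minus 86, 93 minus 86, 92 minus 97 and 93 minus 97 in turn, against medians of all genes between -0.04 and 0.00.

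**Figure D3:**
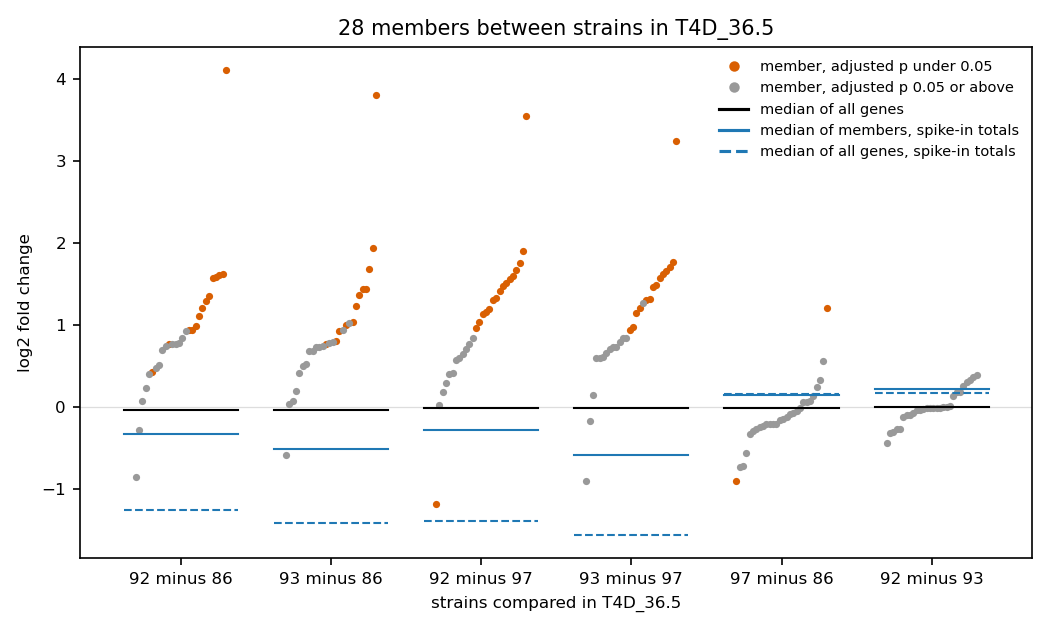
Log2 difference between strains in T4D_36.5 for each of the 28 genes, by pair of strains, with orange dots at edgeR adjusted p under 0.05; black lines give the median of all genes on the same scale, and blue lines the medians of the 28 genes (solid) and of all genes (dashed) with spike-in totals as the scale. In the first 4 pairs the genes lay mostly above 0 and above the median of all genes, and with spike-in totals their median fell below 0 but stayed above that of all genes.

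The share of spike-in counts moved with the strains in T4D_36.5. It was 5.14%, 6.63% and 10.2% in strain 92 and 5.79%, 6.80% and 11.7% in strain 93 (lowest, median and highest library), against 1.83%, 3.31% and 4.31% in strain 97 and 1.95%, 4.16% and 5.05% in strain 86. With spike-in totals as library sizes, a scale chosen after seeing the data, the median of all genes was -1.25 on the log2 scale for strain 92 minus 86 and -1.56 for 93 minus 97, and the 28 genes had medians of -0.33 and -0.59. On that scale 5 of the 28 differed among strains in T4D_36.5 by edgeR, against 74.8% of all genes. They were SPAC5H10.05c, mcp7, aat1, SPCC330.07c and ght6, of which SPCC330.07c and ght6 had also passed on the scale of gene counts. The higher levels in strains 92 and 93 were thus higher shares of the gene counts, and how the spike-in RNA was added is not given in the sources used here.

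Whether the rise itself differed between strains was tested as an interaction of strain and temperature in the 24 T4D libraries. By edgeR it passed for 10 of the 28 (adjusted p under 0.05), against 10% of all 6172 genes tested. The test used the values that chose the genes, and members such as cta3 and SPCC663.08c, with ratios of 2.04 and 2.13 in strain 97, met the 4-fold limit through other strains. This count too, and the p-values below, are therefore partly set by the choice. The ratio of T4D_36.5 to T4D_25 was 21.6 in strain 92 and 15.4 in strain 93, against 7.90 in strain 97 and 5.27 in strain 86, for SPBC1652.02 (edgeR adjusted p = 0.000885). For mei4 it was 12.2 and 11.1 in strains 92 and 93, against 4.18 and 5.004 in strains 97 and 86 (edgeR adjusted p = 0.0017), while the T4D_25 levels did not pass the strain test. aat1 went in another order, with ratios of 17.8 in strain 92, 13.0 in strain 93, 30.3 in strain 97 and 17.2 in strain 86 (edgeR adjusted p = 0.00432). With the culture as a block the count was 15, against 26.8% of all genes. Without replicate 1 it was 3 (all genes 2.58%), without replicate 2 it was 0 (9 at an unadjusted p under 0.05, and 0 of all genes by edgeR), and without replicate 3 it was 7 (6.05%). On the spike-in scale it was 1, against 7.49%.

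Within T4D_36.5 the 28 genes varied together to differing degrees. Over the 12 libraries the median Pearson r of their 378 pairs was 0.67, with 253 pairs above 0.5 and 22 below -0.5, a description in which the libraries share strain, batch and depth. Pairs of other genes were not measured, so it is not known whether these values are particular to the 28. The genes closest to mei4 were cta3 (r = 0.985), ght6 (0.959), SPBC1652.02 (0.957) and SPAC5H10.10 (0.952). mcp7 (0.140) and SPAC5H10.05c (0.0576) showed little relation to mei4, and SPCC330.07c ran against it (-0.905).

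The genes beside these 28 were read in the same contrast. Of 52 next genes on either side that could be tested, 17 were higher and 24 lower in T4D_36.5 than in T4D_25 by edgeR (adjusted p under 0.05), with a median log2 difference of -0.16, where 33.8% of all genes were higher and 35.3% lower. Past 2-fold, 4 were higher and 6 lower, where 13.3% and 5.37% of all genes were. On the spike-in scale 3 of the 52 were higher and 39 lower, where 8.23% of all genes were higher and 74.9% lower. Of the 4, 3 flank aat1 and abc3 on chromosome II (111007 to 127461, ASM294v2): pfl7, a cell surface flocculin that lies between them, with 6.22 (SE 0.68), mug14, an adducin-like protein of the actin cytoskeleton, with 5.70 (SE 0.24), and alr2, an alanine racemase, with 3.88 (SE 0.56). In heated growing cells pfl7 differed by 0.77 (SE 0.22), mug14 by 2.06 (SE 0.34) and alr2 by -0.47 (SE 0.32), the last with an edgeR adjusted p of 0.197. So 5 adjacent coding genes from alr2 to mug14 were higher in heated quiescence, of which aat1 and abc3 were in the set by rule. The fourth was ecl2, a small protein of chronological lifespan beside SPBP35G2.17, with 1.12 (SE 0.17).

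The 6 neighbours that fell by at least 2-fold were mam2, SPCC330.06c (pmp20), SPAC11D3.19, SPCC663.09c, sgo1 and act1. mam2, the pheromone receptor beside fta6, had a log2 difference of -4.72 (SE 0.22), pmp20, a peroxiredoxin beside SPCC330.07c, one of -1.47 (SE 0.13), and sgo1, the meiotic shugoshin beside SPBP35G2.17, one of -1.13 (SE 0.14). act1, the actin gene 199 bases beyond the end of mei4 on the other strand, had -1.06 (SE 0.11). cdk9, which overlaps the start of mei4 by 58 bases on the same strand, differed by 0.30 (SE 0.06), so the rise of mei4 was not shared by the gene before it to that extent.

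Non-coding RNAs on the opposite strand of these genes were measured as well, and the libraries kept the strand. Of 11 tested, 8 were higher and 2 lower in T4D_36.5 by edgeR (adjusted p under 0.05), with 6 and 2 past 2-fold and a median of 1.90, where 13.3% of all genes were at least 2-fold higher and 5.37% at least 2-fold lower. On the spike-in scale 6 were higher and 4 lower, with a median of 1.12. The RNA opposite SPAC5H10.10 (SPNCRNA.615, overlap 1700 bases) rose by 4.81 (SE 0.34), that opposite SPAC1093.07 (SPNCRNA.1004, 1483 bases) by 3.29 (SE 0.22), and that opposite SPAC6C3.03c (SPNCRNA.813, 1081 bases) by 2.63 (SE 0.17), all on the log2 scale. Opposite meu10, SPNCRNA.1238 rose by 3.20 (SE 0.17) and SPNCRNA.1237 by 1.90 (SE 0.24), and SPNCRNA.1313, which overlaps abc3 by 80 bases, rose by 5.09 (SE 0.37).

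In growing cells, heated for a doubling in rich medium, these RNAs had other values, and 10.9% of all genes were at least 2-fold higher and 3.52% at least 2-fold lower. SPNCRNA.1004 differed by -0.76 (SE 0.20) and SPNCRNA.1238 by -0.09 (SE 0.17) in V_36.5 minus V_25, and SPNCRNA.1213, opposite SPCC663.08c, by 1.94 (SE 0.12) there and by 0.41 (SE 0.11) in quiescence. For cta3 and SPBC1652.02 the RNAs of both strands parted, with SPNCRNA.1374 opposite cta3 at -1.74 (SE 0.16) and SPNCRNA.577 opposite SPBC1652.02 at -1.72 (SE 0.13) in quiescence. SPNCRNA.1118, opposite the whole of ght6, had a log2 difference of -0.01 (SE 0.11, edgeR adjusted p = 0.919) beside the 35.02-fold ratio of ght6. Over 70 antisense RNAs inside coding genes above 100 CPM, the antisense level per base was 0.0605 times the sense level at the median. That value holds antisense RNA as well as any sense reads counted on the wrong strand, and the 2 cannot be told apart here.

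**Figure D4:**
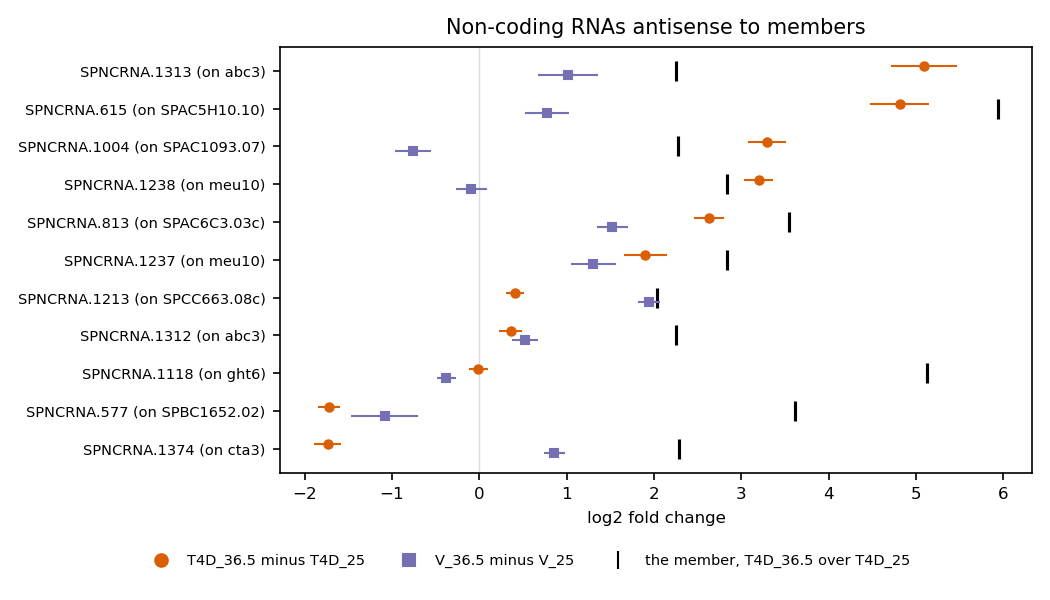
Log2 difference of 11 non-coding RNAs that lie opposite one of the 28 genes, in quiescence (T4D_36.5 minus T4D_25, orange circles) and in growing cells (V_36.5 minus V_25, purple squares), with bars for 1 SE and a black tick for the log2 ratio of the coding gene itself. The upper 6 RNAs were raised in quiescence by 1.90 to 5.09, and the lowest pair, opposite SPBC1652.02 and cta3, fell while their coding genes were higher.

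Heat shock genes were counted in both states, heated for 4 days in quiescence and for a doubling in growing cells. Of 25 heat shock protein and chaperone genes tested, 8 were higher and 8 lower in T4D_36.5 by edgeR (adjusted p under 0.05), with a median log2 difference of 0.02, whereas in growing cells, where 34.0% of all genes were higher and 29.3% lower, 21 were higher and 3 lower with a median of 1.14. hsp16 differed by 2.13 (SE 0.17) in quiescence and 4.17 (SE 0.19) in growing cells, and hsp3104 by 2.06 (SE 0.12) and 2.22 (SE 0.11). The pheromone genes went down in heated quiescence, with 1 of 26 higher and 21 lower and a median of -1.12, mfm1 at -4.13 (SE 0.16). Of 30 other transposon and wtf genes tested, 26 were higher and 2 lower, with a median of 0.99. On the spike-in scale the medians of these 3 lists were -0.88, -2.05 and 0.07, beside -0.95 for all genes. The counts there were 2 higher and 20 lower for the heat shock list, 0 and 26 for the pheromone list and 7 and 7 for transposon and wtf genes.

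The other lists that hold a gene of the 28 or border on their roles had medians between -0.59 and 0.11. Of 29 other genes of DNA replication and repair 10 were higher and 11 lower, of 13 genes of calcium signalling 2 and 4, of 25 cell wall enzymes 2 and 18, and of 9 flocculins and adhesins 3 and 4, by edgeR (adjusted p under 0.05). Their medians were 0.11, 0.07, -0.59 and 0.01. The genes of DNA replication with the largest differences were cdt2, at 1.22 (SE 0.09), and the checkpoint kinase chk1, at -0.82 (SE 0.09). For genes of ergosterol and lipid synthesis, of the respiratory chain, of the proteasome, of autophagy and of zinc, phosphate and thiamine, the medians were -0.34, -0.10, -0.06, -0.06 and -0.41.

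Regulatory motifs in the window of 250 bases before to 50 bases after the start were counted beside all 5113 protein-coding genes, and a match is a description only. The heat shock element was in 25.0% of the 28 against 19.9%, and the GATA element of nitrogen regulation (AGATAA or TGATAA, both strands) in 57.1% against 44.1%. The Atf1 element TGACGT was in 1 gene (3.57%) against 5.91%, the stress element CCCCT in 1 (3.57%) against 10.4%, the calcineurin element AGCCTC in 3 (10.7%) against 4.75%, the TR box TTCTTTGTT in 1 (3.57%) against 1.99%, and the MluI box ACGCGT in none against 3.25%. The Pap1 element TTACGTAA was in cta3 alone of the 28 (3.57%) and in 0.469% of all genes. Most of these shares rest on few genes.

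By position, 12 of the 28 (42.9%) lay between 100 and 250 kb from an outermost gene end of their chromosome, against 7.23% of eligible rows. The genes were spread over chromosomes I (11 genes), II (9) and III (8). Of the 28, 21 (75.0%) had 1 exon, against 50.2% of eligible rows. Their coding sequences had a median length of 906.5 bases, against 1134 for all, and a median GC content of 39.6% in both.

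At the limits of the rule, mik1 (4.02-fold) and SPCC663.08c (4.11-fold) lay just inside the 4-fold limit and ght1 (3.95-fold) and SPAC227.17c (3.85-fold) just outside. For the level in T4D_36.5, gmh1 (12.4 CPM) and frp1 (14.1 CPM) were inside and mug42 (8.65 CPM) and pma2 (8.05 CPM) outside. For heat in growing cells, gmh1 (1.97-fold) and fta6 (1.89-fold) were inside and SPBC36.02c (2.17-fold) and atf21 (2.21-fold) outside. For the change from T0 to T4D_25, SPAC1093.07 (2.24-fold) and fta6 (2.03-fold) were inside and nmt1 (2.704-fold) and SPAC343.21 (3.99-fold) outside.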

How the data were processed

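Total RNA of S. pombe cultures was depleted of ribosomal RNA and made into stranded, paired-end Illumina libraries by the authors. Per the labels and the methods of the study, reads were aligned with STAR 2.7.10a to ASM294v2 and counted in annotated exons with featureCounts 1.5.1. The deposited table holds whole-number counts, not normalised, for 7014 gene rows and 92 ERCC spike-in rows in 72 libraries. How reads with several matches were counted and how the spike-in RNA was added are not given in the sources used here. Sequencing depth was 1173880 to 7664476 gene counts per library, so that 3 counts equal 0.391 to 2.56 CPM.

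Samples were grouped by the strain, state and temperature given in the labels. CPM were computed as counts over the column sum without spike-in rows. Tests used the edgeR 4.0.16 quasi-likelihood test with filterByExpr and TMM (R 4.3.3), with Benjamini-Hochberg adjustment over all genes tested, or over genes and pairs for pairs of strains, and a threshold of 0.05. The strain tests used the 12 libraries of a condition, the interaction the 24 T4D libraries, and the heat contrasts, read only for genes outside the 28, all 60 libraries of strains 86, 92, 93 and 97. Log2 differences have standard errors from the F statistic. DESeq2 1.42.0 and the other alternatives are given at the end. Scripts were tested on simulated data.

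The labels call the replicate number a batch. Deviations from group means correlated between same-numbered T4D_36.5 libraries of different strains (mean r 0.35, 0.10 to 0.56 over 18 pairs), and between T4D_36.5 and T4D_25 libraries of the same strain and number (mean r 0.46, 0.19 to 0.66 over 12 pairs), so the numbers pair the samples. Counts with the replicate block are given for the strain tests, the pairs of strains and the interaction. The study states biological triplicates but the labels name no separate cultures, so p-values measure the spread between these libraries.

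The 28 genes and the gene lists were chosen with earlier results of these data known. All 28 are described. Genes outside the 28 were named by a rule, as the 2 of a list with the largest difference past the threshold, and neighbours or antisense RNAs past the threshold and at least 2-fold different, and the others named, cdk9, SPNCRNA.1213 and SPNCRNA.1118, were chosen after their values were seen. Sequences came from the RefSeq genome ASM294v3, in which all 28 genes were found by identifier, and shared sequence was measured as 50-base stretches found in another annotated gene. Coordinates of ASM294v2 are those of the deposited table.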

Additional observations from a re-analysis of the deposited data

Results flagged for a closer look

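The ratio of T4D_36.5 to T4D_25 differed between the 4 strains, by the interaction of strain and temperature in edgeR over the 24 T4D libraries, for 10 of the 28 genes, against 10% of all 6172 genes tested. The test used the values that chose the genes, so this count and the p-values below are partly set by the choice. With ratios under 4 in strain 97, osr1, cta3, SPAC1F8.08, leu3, SPCC663.08c and SPAC1093.07 met the 4-fold limit through other strains. Without replicate 2 it was 0 of the 28, with 9 at an unadjusted p under 0.05. The edgeR adjusted p was 0.000885 for SPBC1652.02, 0.00106 for osr1, 0.00168 for cta3, 0.0017 for mei4 and 0.00432 for aat1. It was 0.0144 for SPAC1F8.08, 0.0232 for leu3, 0.033 for SPCC663.08c, 0.049 for SPAC5H10.05c and 0.0491 for SPAC1093.07, all adjusted p by edgeR. The order of the strains was not the same in all. The ratio was lowest in strain 97 for osr1 (3.51), cta3 (2.04), mei4 (4.18), SPAC1F8.08 (3.44), leu3 (3.30), SPCC663.08c (2.13) and SPAC1093.07 (2.65). It was lowest in strain 86 for SPBC1652.02 (5.27), in strain 92 for SPAC5H10.05c (5.05) and in strain 93 for aat1 (13.0). The spike-in share was higher in the T4D_36.5 libraries of strains 92 and 93 than in those of strains 97 and 86, whereas the ratio was highest in strain 97 for aat1 (30.3) and in strain 86 for SPAC5H10.05c (14.4). On the spike-in scale SPCC330.07c was the 1 gene of the 28 that passed by edgeR (5 at an unadjusted p under 0.05), beside 7.49% of all genes. The part of the spike-in share in these differences was not tested.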

How the results depend on the processing

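The rule gave 25 to 29 genes under the other scalings (TMM, DESeq2 size factors, no ribosomal RNA genes), group medians and without each replicate number, of which 24 to 27 were among the 28. Spike-in totals, chosen after seeing the data, gave 6 genes in the starved libraries. Scaling by spike-in counts in all libraries could not be run, since libraries of growing cells hold almost none, and the heat contrast in growing cells has no spike-in value for the same reason.

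With spike-in totals as library sizes, 5 of the 28 differed among strains in T4D_36.5, 0 in T4D_25 (1 at an unadjusted p under 0.05), 6 in 1 or more pairs of strains and 1 in the interaction. The shares of all genes were 74.8%, 0.891%, 75.8% and 7.49% in the same order. On that scale 4 differences changed sign, SPAC5H10.10 for strain 93 minus 97 (-0.012), osr1 for 92 minus 86 (-0.485) and 93 minus 86 (-0.4996), and rpn1301, a proteasome gene, for T4D_36.5 minus T4D_25 (-0.24). In T4D_25 the count was 6 by the edgeR likelihood ratio test, 1 with at least 10 counts in every library, where 14 of the 28 could be tested, and 4 with the replicate block. All genes passed at 4.05%, 1.53% and 7.55% in the same order. Leaving out each replicate number in turn gave 6 to 22 genes in T4D_36.5, 0 to 1 in T4D_25, 3, 0 and 7 in the interaction and 6 to 23 in pairs of strains, from fewer libraries. The shares of all genes were 3.09% to 21.1% in T4D_36.5, 0.223% to 1.72% in T4D_25, 2.58%, 0% and 6.05% in the interaction and 1.93% to 22.6% in pairs. The replicate block gave 27 genes in T4D_36.5 (all genes 39.1%), 27 in pairs of strains (43.9%) and 12 in the interaction (23.3%), 15 with the culture as block (26.8%). Each shared all genes called without it in T4D_36.5 and in the interaction. DESeq2 gave 23, 3, 11 and 23 genes for T4D_36.5, T4D_25, the interaction and the pairs, against 29.6%, 3.53%, 13.9% and 31.0% of all genes. The 41 and 33 neighbours called in quiescence and in growing cells stayed within 1.5 times under every alternative run, but on the spike-in scale those in quiescence were 3 higher and 39 lower in place of 17 and 24. Of single log2 differences under the alternatives other than spike-in totals, 716 kept direction and side of the threshold and 19 lost the threshold. At 3 counts per library, levels under 0.391 to 2.56 CPM cannot be told from 0. This touches the T4D_25 levels of ght6, gmh1, SPCC330.07c, SPAC6C3.03c, frp1, SPAC5H10.10, SPAC3G6.07 and SPBC1652.02.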
